A study of Homo sapiens with 4 samples.

Results

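Ligand, receptor, inhibitor and target genes of transforming growth factor beta (TGF-beta), activin and bone morphogenetic protein (BMP) signalling, 10 in number, were followed in SUM159, a cell line from a triple-negative breast cancer. These genes, TGFB1, TGFB2, TGFB3, INHBA, BMP4, TGFBR1, TGFBR2, FST, SMAD7 and ID1, were chosen by name for their place in the pathway. The choice was made with earlier results of these data known. The genes were found by Ensembl identifier among the 60279 genes of the deposited count tables. All 10 had a mean of at least 1 CPM (reads per 1000000 reads in genes), as did 14269 genes in all. The cells were either untreated or given palbociclib, a CDK4 and CDK6 inhibitor that blocks cell cycle entry, or indisulam, a sulfonamide that directs the splicing factor RBM39 to degradation, or both, and RNA sequencing gave 1 library for each of the 4 conditions. Every culture was kept in DMEM/F12 with 10% fetal serum, 5 µg/ml insulin and 1 µg/ml hydrocortisone. The sample labels give 0.5 µM palbociclib, 2 µM indisulam and 10 days of treatment, whereas the text of the series gives 2 µM, 3 µM and 16 h with technical duplicates, and these were not reconciled. The study describes both settings for this line. The labelled doses for 10 days were used for its gene set enrichment, and the other doses for 16 h for its splicing analysis. Its splicing reads were aligned with Hisat2, whereas the processing notes of these libraries name TopHat2. No label states whether duplicates were pooled into a library.

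TGF-beta, activin and BMP ligands are secreted dimers that bring a type II and a type I receptor kinase together at the cell surface. The type I receptor then phosphorylates SMAD proteins, SMAD2 and SMAD3 for TGF-beta and activin and SMAD1, SMAD5 and SMAD8 for most BMPs, and these enter the nucleus with SMAD4. The pathway restrains the proliferation of epithelial cells, drives matrix production and epithelial-mesenchymal transition, and is part of the secretory phenotype of many senescent cells. Because TGF-beta and activin share a cytoplasmic route while BMPs use another, the members are described in that order, from ligands to receptors, inhibitors and targets.

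Gene reads numbered from 12555908 to 16712174 per library, so that 3 reads, the floor used here, corresponded to between 0.180 and 0.239 CPM. Mitochondrially encoded genes took between 4.90% and 7.33% of the reads. ESR1 had 16 reads or fewer and PGR 3 or fewer in any library, ERBB2 was between 110 and 143 CPM, VIM between 2642 and 4598 CPM and KRT8 between 416 and 575 CPM, while EPCAM and CDH1 were at 1.95 CPM or less. Of 7 markers of blood and vessel cells, CD3E had no read in any library, and HBB and CD68 had 2 reads or fewer. The sum of the list was 28.0 CPM untreated, 55.2 with palbociclib, 35.0 with indisulam and 31.7 with the combination, and came almost wholly from PECAM1 and PTPRC. There were no replicates and no batch labels, so batch and condition cannot be told apart, no p-value could be given, and intervals cover counting error only. RNA level per cell and the share of cells that make the RNA cannot be told apart in bulk libraries either.

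A log2 ratio between libraries was taken after scaling to equal totals, with a pseudocount of 1 scaled read, and is given with its 95% Poisson interval. A gene was called higher or lower when the ratio was at least 2-fold and the interval excluded no change. Each drug was compared without and with the other drug, in pairs of libraries that have none in common. The robust (median-based) spread of the disagreement between such pairs over all genes gave a noise bound on one log2 ratio for a typical gene. It was 0.28 at 100 CPM or more, 0.26 from 20 to 100 CPM, 0.37 from 5 to 20 CPM and 0.62 from 1 to 5 CPM. It does not limit the noise of any single gene, and a difference between libraries that follows a drug cancels in it.

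The first question was which members each drug moved. The combination library had more TGFB2, INHBA, TGFBR1 and FST RNA than the untreated library and less TGFB3 RNA. TGFB2, INHBA, TGFBR1 and TGFB3 were called in the same direction with indisulam alone, whereas palbociclib alone went with higher BMP4 and TGFBR1. Against untreated cells, 2 of the 10 members were called with palbociclib, both higher, where 10.6% of all tested genes were called, 5.71% higher and 4.84% lower. With indisulam 4 of 10 were called, 3 higher and 1 lower, against 14.9% of all genes, 8.23% higher and 6.65% lower. With the combination 5 of 10 were called, 4 higher and 1 lower, against 23.4% of all genes, 12.9% higher and 10.5% lower. The median log2 ratio of the 10 members was 0.45, 0.42 and 0.55 in these comparisons, beside −0.02, 0.06 and 0.05 for all tested genes. These 3 comparisons share the untreated library.

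**Figure D1:**
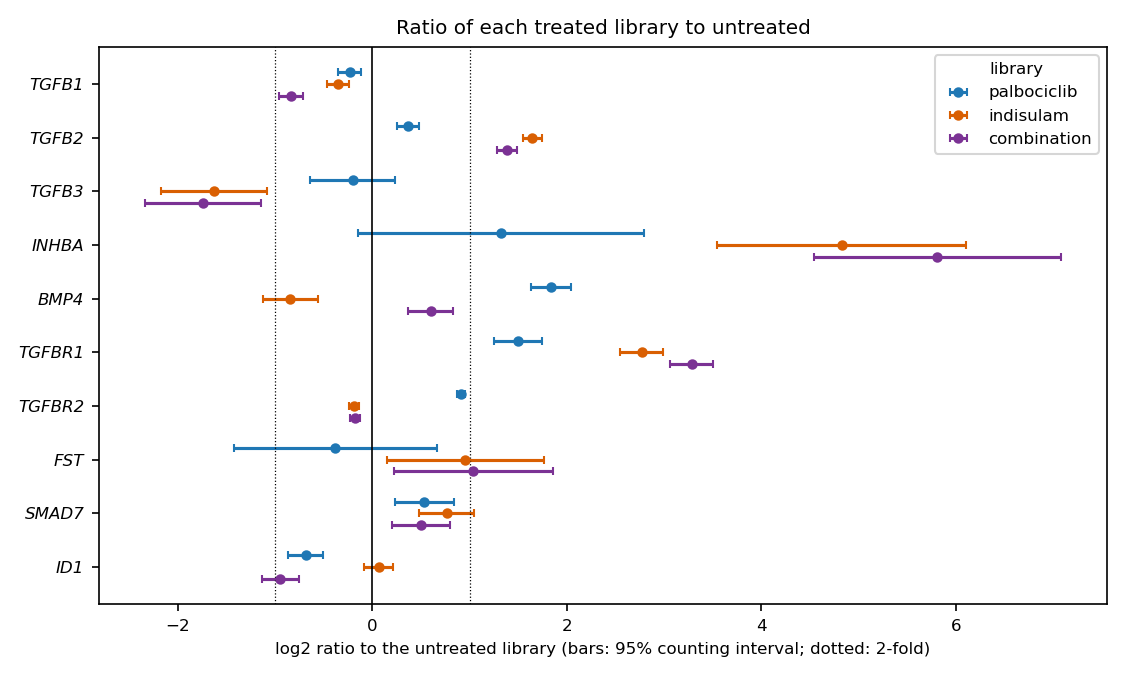
Log2 ratio of each treated library to the untreated library for the 10 members, with 95% Poisson counting intervals; colours mark the treated library and dotted lines 2-fold. INHBA and TGFBR1 lie farthest to the right with indisulam and the combination, TGFB3 lies to the left, and BMP4 is on opposite sides with palbociclib and indisulam.

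The 3 TGF-beta ligand genes behaved differently from one another. TGFB1, the most widely expressed ligand of the family (ENSG00000105329, chr19:41301587-41353922, minus strand, GRCh38), had 1267 reads (101 CPM) untreated, 1089 (85.8 CPM) with palbociclib, 1318 (78.9 CPM) with indisulam and 810 (56.4 CPM) with the combination. The untreated library was highest and the combination lowest, and the counting intervals of the single drugs overlapped each other, 80.8 to 91.1 CPM with palbociclib and 74.7 to 83.2 CPM with indisulam. Relative to untreated, palbociclib gave a log2 ratio of −0.23, indisulam −0.36 and the combination −0.84 (−0.97 to −0.71). TGFB1 did not reach 2-fold in any comparison, although the last value was 3.20 times the bound on the noise of a ratio.

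TGFB2 encodes a second isoform of the ligand (ENSG00000092969, chr1:218345336-218444619, plus strand) and had 1052 reads (83.8 CPM) untreated, 1369 (108 CPM) with palbociclib, 4372 (262 CPM) with indisulam and 3142 (219 CPM) with the combination. Both libraries with indisulam were above both without it. TGFB2 was higher with indisulam by 3.12-fold (2.92 to 3.34), a log2 ratio of 1.64, and with the combination by 2.61-fold (2.43 to 2.80), or 1.38 on the log2 scale. Against palbociclib alone, the combination was at a log2 ratio of 1.02 (0.93 to 1.11), just past 2-fold, and the call was lost with TMM, median-of-ratios and upper-quartile scaling.

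TGFB3, the third isoform (ENSG00000119699, chr14:75958097-75983011, minus strand), went the other way from a far lower level. It had 90 reads (7.17 CPM) untreated, 79 (6.22 CPM) with palbociclib, 38 (2.27 CPM) with indisulam and 30 (2.09 CPM) with the combination. The libraries with and without indisulam did not overlap in their counting intervals, the upper end with indisulam alone being 3.12 CPM and the lower end with palbociclib alone 4.93 CPM. TGFB3 was 3.09-fold (2.11 to 4.51) lower with indisulam and 3.35-fold (2.22 to 5.07) lower with the combination than untreated, which is 2.61 and 2.80 times the noise bound at this level.

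Because ratios within a library do not depend on its depth, the shares of the 3 isoforms were compared too. In reads, TGFB2 was 43.7% of the 3 genes untreated (exact binomial 95% interval 41.7 to 45.7), 54.0% with palbociclib (52.0 to 55.9), 76.3% with indisulam (75.2 to 77.4) and 78.9% with the combination (77.6 to 80.2). Per exon length, TGFB1 was the largest share untreated at 67.0% and with palbociclib at 58.0%, and TGFB2 was the largest with indisulam at 63.7% and with the combination at 67.2%. TGFB3 was 2.98% of the 3 genes per length untreated and 0.642% with indisulam.

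**Figure D2:**
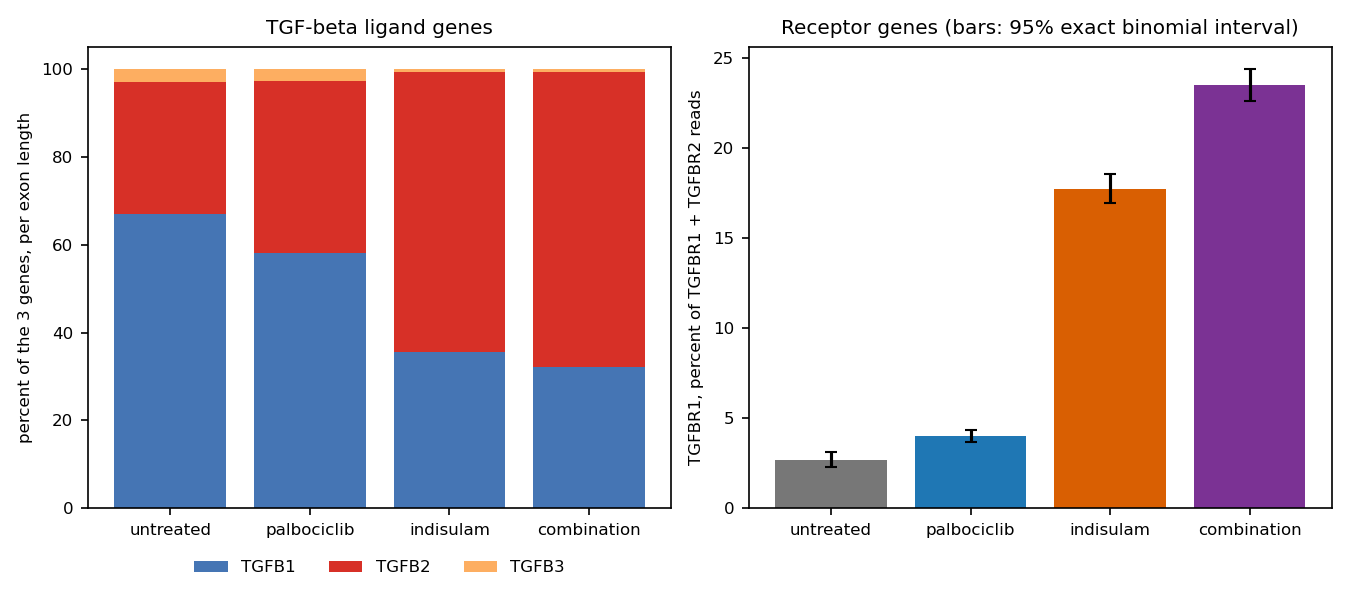
Left, share of TGFB1, TGFB2 and TGFB3 in their summed level per exon length, in percent, by library. Right, TGFBR1 reads as a percent of TGFBR1 and TGFBR2 reads, with exact binomial 95% intervals. TGFB2 passes TGFB1 in both libraries with indisulam, where the TGFBR1 share is 17.7% and 23.5% against 2.69% untreated.

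INHBA encodes the inhibin beta A chain, which pairs with itself to form activin A, and had the highest ratio of the 10 members in each comparison of a library with indisulam with one that lacked it (ENSG00000122641, chr7:41667168-41705834, minus strand). It had 5 reads untreated (0.398 CPM, interval 0.129 to 0.929), 14 with palbociclib (1.10 CPM, 0.603 to 1.85), 221 with indisulam (13.2 CPM, 11.5 to 15.1) and 377 with the combination (26.2 CPM, 23.7 to 29.0). The gene was near the floor untreated and the intervals of the libraries without indisulam overlapped, while each library with indisulam was separate from all the others. INHBA was 28.3-fold (11.7 to 68.7) higher with indisulam than untreated, rank 24 from the top of the 14269 tested genes, and 56.1-fold (23.2 to 136) higher with the combination, rank 35. The width of these intervals comes from the 5 reads of the untreated library, and the log2 ratios of 4.82 and 5.81 became 4.17 and 5.14 with a pseudocount of 5. The palbociclib ratio of 1.32 (−0.15 to 2.80) was not distinguishable from no change at this depth, and with indisulam present the ratio for palbociclib was 0.99 (0.75 to 1.23).

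BMP4, a BMP ligand that signals mainly through SMAD1, SMAD5 and SMAD8 (ENSG00000125378, chr14:53949736-53958761, minus strand), followed palbociclib. It had 237 reads (18.9 CPM) untreated, 858 (67.6 CPM) with palbociclib, 175 (10.5 CPM) with indisulam and 411 (28.6 CPM) with the combination. Each library with palbociclib was above the library that differed from it only in lacking palbociclib, and no counting interval overlapped another. BMP4 was 3.57-fold (3.09 to 4.12) higher with palbociclib alone, and 2.72-fold (2.28 to 3.25) higher in the combination than with indisulam. With indisulam it was at −0.85 (−1.13 to −0.56) without palbociclib and 2.36-fold (2.097 to 2.65) lower with it. Combination and untreated were separated by 0.60 (0.37 to 0.83). The summed markers of blood and vessel cells were also highest in the palbociclib library, mainly through PECAM1. PECAM1 was at 15.2 CPM untreated, 40.9 with palbociclib, 17.5 with indisulam and 20.4 with the combination. PTPRC was at 12.2, 12.5, 17.5 and 11.1 CPM in that order, and CDH5 had 5, 23, 0 and 0 reads. The part of these markers in the BMP4 ratio was not tested.

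**Figure D3:**
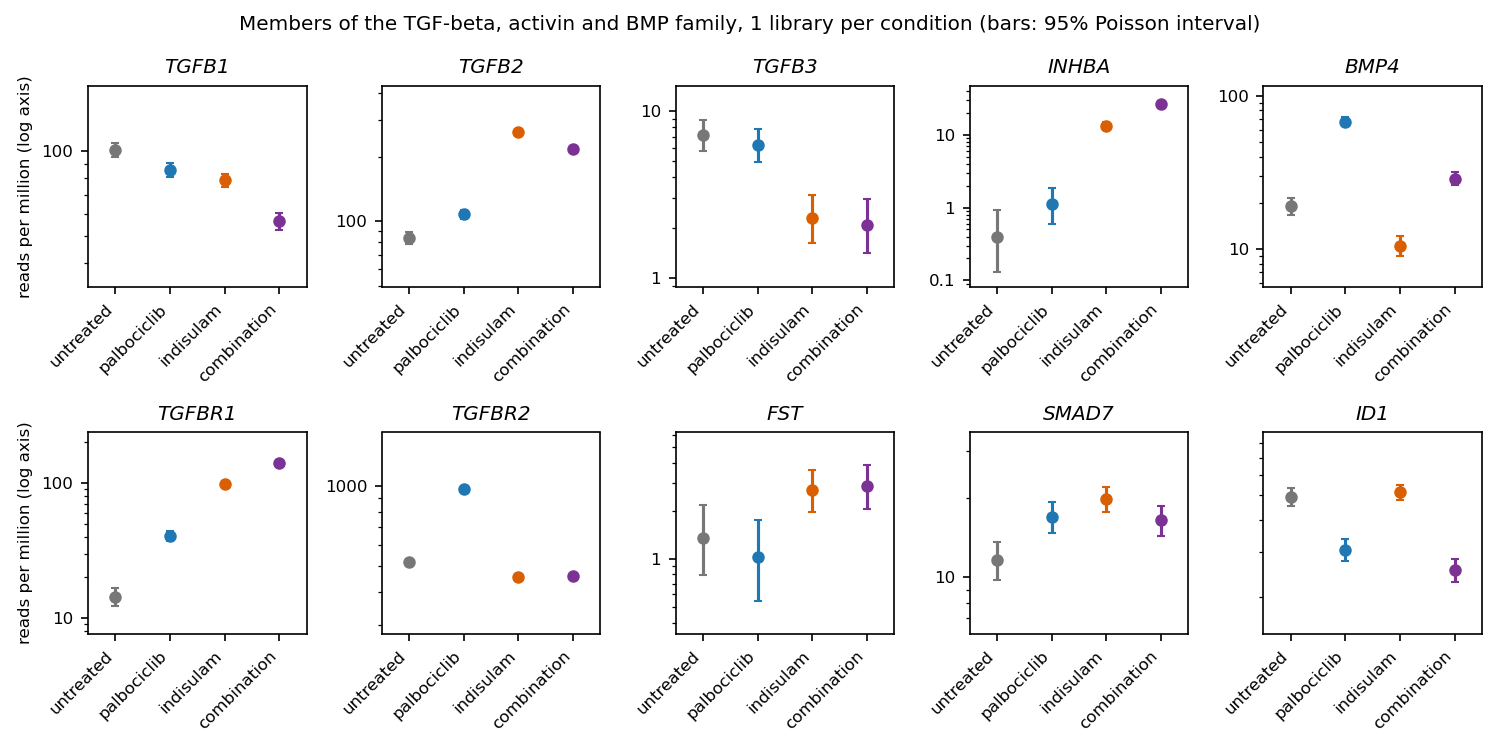
Level of each member in CPM on a log axis, 1 point per library with its 95% Poisson interval. The libraries with indisulam stand apart from those without it for TGFB2, TGFB3, INHBA and TGFBR1, and the palbociclib library stands apart from the others for BMP4 and TGFBR2.

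Of the receptors, TGFBR1 is the type I receptor kinase that phosphorylates SMAD2 and SMAD3, and it was higher in every treated library (ENSG00000106799, chr9:99104038-99154192, plus strand). It had 180 reads (14.3 CPM) untreated, 516 (40.7 CPM) with palbociclib, 1640 (98.1 CPM) with indisulam and 2016 (140 CPM) with the combination. No interval overlapped another, and the order was untreated, palbociclib, indisulam, combination. TGFBR1 was 2.83-fold (2.39 to 3.35) higher with palbociclib, 6.82-fold (5.84 to 7.95) higher with indisulam and 9.75-fold (8.37 to 11.4) higher with the combination, the last being rank 207 from the top. The combination lay below the sum of the single drugs, by −0.98 (−1.25 to −0.72) on the log2 scale, where the robust spread of this departure over all genes from 20 to 100 CPM was 0.37.

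TGFBR2 is the type II receptor that binds the ligand first (ENSG00000163513, chr3:30606601-30694142, plus strand), and its level had another pattern. It had 6513 reads (519 CPM) untreated, 12370 (974.7 CPM) with palbociclib, 7601 (455 CPM) with indisulam and 6570 (458 CPM) with the combination. Only the palbociclib library was high, and the intervals of the libraries with indisulam overlapped. The ratio for palbociclib was 0.91 (0.87 to 0.95) without indisulam and 0.01 (−0.04 to 0.06) with it. The combination was 2.13-fold (2.07 to 2.19) lower than palbociclib alone, and the departure from the sum of the single drugs was −0.90 (−0.97 to −0.84), where the spread at 100 CPM or more was 0.40. The ratios of −0.19 with indisulam and −0.18 with the combination to untreated were below the noise bound of 0.28.

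The receptor genes were closer to each other in level in the libraries with indisulam. Untreated cells had 36.2 TGFBR2 reads for each TGFBR1 read, cells with palbociclib 24.0, cells with indisulam 4.64 and cells with the combination 3.26. Per exon length these ratios were 42.2, 28.0, 5.41 and 3.80. Of the reads of both genes, TGFBR1 made up 2.69% in the untreated library (2.32 to 3.11), 4.004% in the palbociclib library (3.67 to 4.36), 17.7% in the indisulam library (17.0 to 18.5) and 23.5% in the combination library (22.6 to 24.4), and none of these intervals overlapped.

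FST encodes follistatin, a secreted protein that binds activin and keeps it from its receptors (ENSG00000134363, chr5:53480626-53487134, plus strand). Its RNA was scarce, with 17 reads (1.35 CPM) untreated, 13 (1.02 CPM) with palbociclib, 45 (2.69 CPM) with indisulam and 41 (2.86 CPM) with the combination. The libraries with indisulam were above those without it, but the intervals of the untreated library, 0.789 to 2.17 CPM, and the combination, 2.05 to 3.87 CPM, overlapped slightly, and so did those of the untreated and the indisulam library, with 1.964 to 3.603 CPM in the latter. FST was 2.05-fold (1.17 to 3.61) higher with the combination than untreated, a call that was lost with 2 other scalings and with a larger pseudocount, and 2.67-fold (1.43 to 4.99) higher than with palbociclib. INHBA was 22.7% (7.82 to 45.4) of the reads of INHBA and FST untreated, 51.9% (32.0 to 71.3) with palbociclib, which overlapped untreated, 83.1% (78.0 to 87.4) with indisulam and 90.2% (86.9 to 92.9) with the combination. INHBA has the longer exons, and per exon length its shares were 8.90%, 26.35%, 62% and 75.3% in that order.

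SMAD7 is an inhibitory SMAD that competes for the type I receptor and is itself a target of the pathway (ENSG00000101665, chr18:48919853-48950965, minus strand). It had 146 reads (11.6 CPM) untreated, 214 (16.9 CPM) with palbociclib, 331 (19.8 CPM) with indisulam and 236 (16.4 CPM) with the combination. The untreated library was lowest and the intervals of the 3 treated libraries overlapped. SMAD7 was called in no comparison, with ratios to untreated of 0.53 (0.23 to 0.84), 0.76 (0.48 to 1.05) and 0.50 (0.20 to 0.79).

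ID1, a helix-loop-helix inhibitor and a direct target of BMP signalling (ENSG00000125968, chr20:31605283-31606515, plus strand), had 617 reads (49.1 CPM) untreated, 387 (30.5 CPM) with palbociclib, 860 (51.5 CPM) with indisulam and 366 (25.5 CPM) with the combination. Both libraries with palbociclib were below both without it, and the intervals of untreated and indisulam overlapped. The ratio for palbociclib was −0.69 (−0.87 to −0.50) alone, and ID1 was 2.02-fold (1.78 to 2.28) lower in the combination than with indisulam, which is close to the threshold and was lost with median-of-ratios and upper-quartile scaling and with totals that leave out mitochondrially encoded genes. BMP4 was highest in the palbociclib library, in which ID1 was at a lower level than untreated.

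The layout also allows the ratio of each drug in the absence of the other to be set beside that in its presence. For indisulam, 4 of the 10 members, TGFB2, TGFB3, INHBA and TGFBR1, were called in the same direction in both estimates, where 8.33% of all tested genes were. It was 3 of the 10, without TGFB2, with TMM, median-of-ratios and upper-quartile scaling, and 3 without TGFB3 with the filter at 5 CPM. The ratios were 1.64 and 1.02 for TGFB2, −1.63 and −1.54 for TGFB3, 4.82 and 4.49 for INHBA and 2.77 and 1.79 for TGFBR1. Their counting intervals did not overlap for TGFB2 (1.54 to 1.74 and 0.93 to 1.11) and TGFBR1 (2.55 to 2.99 and 1.65 to 1.93). Those of TGFB3 and INHBA overlapped. For palbociclib it was 1 of the 10, BMP4 with 1.84 and 1.44, against 3.11% of all tested genes. In the comparison of the combination with palbociclib, 7 members were called, 4 higher (TGFB2, INHBA, TGFBR1, FST) and 3 lower (TGFB3, BMP4, TGFBR2), against 16.8% of all genes, 9.46% higher and 7.32% lower. With indisulam as the base, 2 members were called, BMP4 higher and ID1 lower, against 8.07% of all genes, 5.01% higher and 3.06% lower. No member departed from the sum of the drugs by 2-fold, where 7.44% of all genes did, 3.75% above the sum and 3.69% below it, and the departure was below 0 for 8 of the 10 members, with a median of −0.36 beside 0.01 for all genes.

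**Figure D4:**
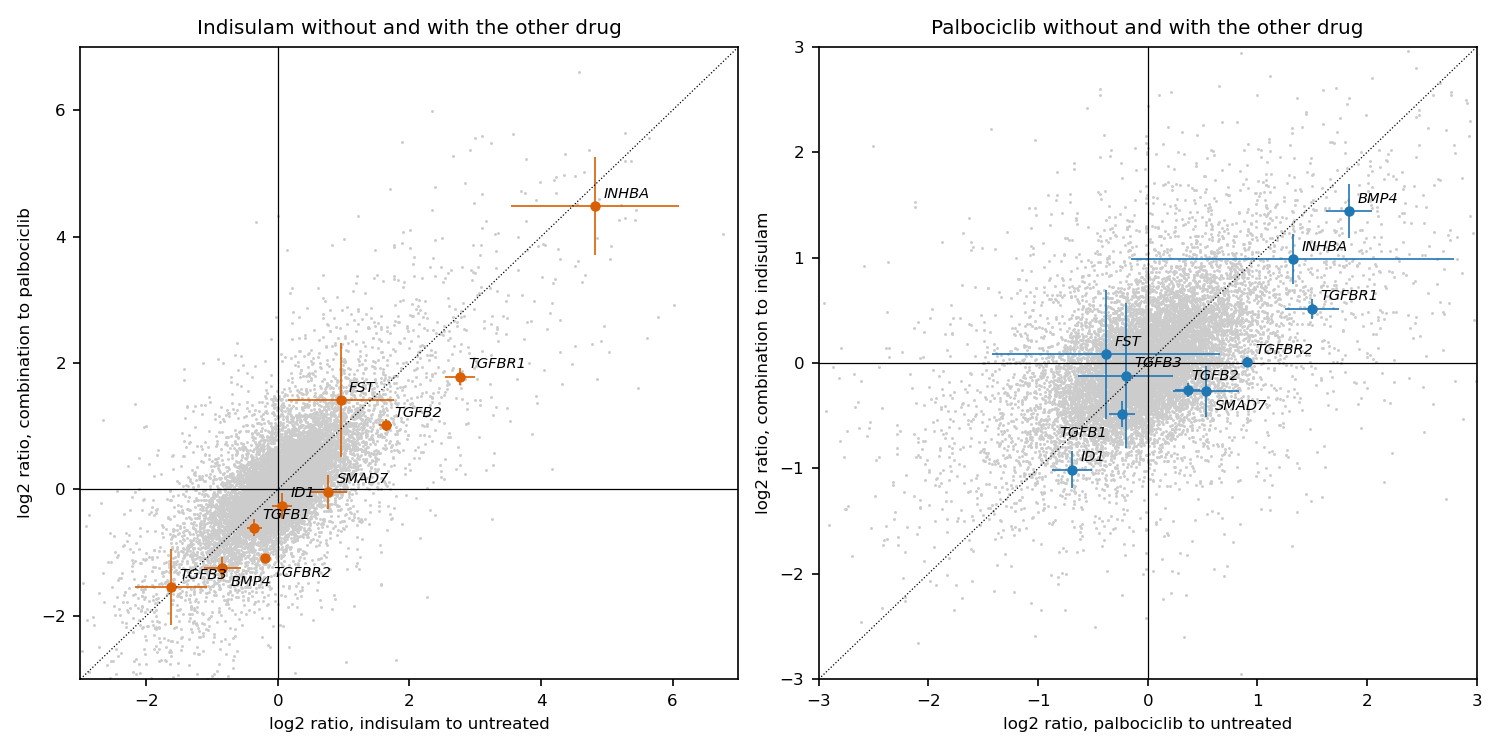
Log2 ratio for indisulam (left) and palbociclib (right) without the other drug on the x axis and with it on the y axis, for the 10 members with 95% counting intervals and for all tested genes in grey; genes outside the axes are not drawn and the dotted line marks equal ratios. INHBA, TGFBR1, TGFB2 and TGFB3 are past 2-fold on both axes for indisulam and BMP4 is for palbociclib.

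Levels were compared between members per exon length, as TPM (transcripts per 1000000 transcripts). TGFBR2 was highest in every library, at 282 TPM untreated, 522 with palbociclib, 259 with indisulam and 248 with the combination. Untreated it was followed by ID1 at 149 TPM, TGFB1 at 115, TGFB2 at 51.6, BMP4 at 22.7 and SMAD7 at 11.0, then TGFBR1 at 6.69 and TGFB3 at 5.12, whose intervals overlapped, FST at 1.83 and INHBA at 0.179. In the combination TGFB2 was next after TGFBR2 at 135 TPM, then came ID1 at 76.9, TGFBR1 at 65.4 and TGFB1 at 64.3, the last pair overlapping, and BMP4 at 34.4, SMAD7 at 15.5, INHBA at 11.8, FST at 3.86 and TGFB3 at 1.49. TGFBR1 thus stood at rank 7 untreated and rank 4 in the combination, and TGFB3 at ranks 8 and 10. With palbociclib, TGFB1, ID1 and BMP4 were neighbours with overlapping intervals at 96.5, 90.8 and 80.2 TPM, TGFB1 with ID1 and ID1 with BMP4, as were TGFBR1 with SMAD7 and FST with INHBA. With indisulam, TGFB2 at 169 TPM and ID1 at 163 TPM overlapped.

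Promoter sequences are shown for the 4 members that were called the same way with indisulam in both estimates, 3 higher and 1 lower. They are from RefSeq (GRCh38.p14), run from 250 bases before to 50 bases after the start, and are in lower case with the TATA box motif TATAAA in capitals. All 10 members had an entry, and that of BMP4 lay 1775 bases from the start of its MANE Select transcript. TGFB2 at chr1:218345086-218345385 (plus strand), INHBA at chr7:41703041-41703340 (minus strand), TGFBR1 at chr9:99104863-99105162 (plus strand) and TGFB3 at chr14:75981946-75982245 (minus strand) read 5′ to 3′ as follows.
TGFB2: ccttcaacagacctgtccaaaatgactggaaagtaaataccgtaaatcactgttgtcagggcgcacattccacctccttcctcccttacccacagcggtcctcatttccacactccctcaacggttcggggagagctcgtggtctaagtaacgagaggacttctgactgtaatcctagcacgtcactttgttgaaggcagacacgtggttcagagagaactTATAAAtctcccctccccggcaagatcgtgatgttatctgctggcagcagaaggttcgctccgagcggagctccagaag
INHBA: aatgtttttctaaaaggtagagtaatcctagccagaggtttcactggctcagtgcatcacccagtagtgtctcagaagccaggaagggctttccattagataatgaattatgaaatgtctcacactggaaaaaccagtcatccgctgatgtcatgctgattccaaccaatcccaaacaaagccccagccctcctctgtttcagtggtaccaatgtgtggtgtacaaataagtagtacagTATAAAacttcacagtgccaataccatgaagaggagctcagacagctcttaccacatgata
TGFBR1: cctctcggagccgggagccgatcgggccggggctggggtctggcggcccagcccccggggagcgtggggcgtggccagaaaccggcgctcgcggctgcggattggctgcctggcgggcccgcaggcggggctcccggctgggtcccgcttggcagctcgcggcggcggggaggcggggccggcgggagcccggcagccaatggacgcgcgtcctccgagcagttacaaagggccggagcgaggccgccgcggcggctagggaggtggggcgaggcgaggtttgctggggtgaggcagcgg
TGFB3: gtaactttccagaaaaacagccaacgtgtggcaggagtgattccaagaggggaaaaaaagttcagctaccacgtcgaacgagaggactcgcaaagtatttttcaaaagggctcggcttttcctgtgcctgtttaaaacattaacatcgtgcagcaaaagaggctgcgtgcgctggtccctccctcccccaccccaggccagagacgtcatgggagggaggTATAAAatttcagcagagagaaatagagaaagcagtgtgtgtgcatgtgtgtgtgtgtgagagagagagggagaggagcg

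On either strand, TATAAA was found in 4 of the 10 promoters (TGFB2, TGFB3, INHBA and ID1) and in 11.5% of all 35116 promoters of this length. It began 29 bases before the start in TGFB2, 30 before it in TGFB3 and 11 before it in INHBA. The TGFBR1 promoter, with 78.7% G and C, had none, whereas TGFB2 had 51.7%, TGFB3 50.3% and INHBA 43.3%, and the median of all promoters was 58.7%. The gene that was lower with indisulam, TGFB3, therefore had the motif as well as genes that were higher. The SMAD motif CAGAC was found in 5 of the 10 (TGFB2, INHBA, BMP4, TGFBR1 and SMAD7) and in 45.3% of all promoters, and the SMAD palindrome GTCTAGAC in none of the 10 and 0.202% of all. The AP-1 motif TGANTCA was in TGFBR2 and FST and in 7.71% of all promoters. The cAMP response element TGACGTCA was in none of the 10 and 1.85% of all, and the TGACG that it contains in 3 of the 10 (TGFB2, TGFB3 and FST) and 24.6% of all. The E-box CACGTG was in TGFB2 and in 7.26% of all promoters, CCAAT was in 5 of the 10 and 34.6% of all, and the GC box GGGCGG was in 5 of the 10 and 45% of all.

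To place the members in the pathway, 114 other genes of it were grouped by role, of which 80 had at least 1 CPM. Some genes stand in more than 1 list, among them PMEPA1, SKIL and BAMBI. They count once among the 80 but again in each list. These lists were also chosen with earlier results of these data known. The filter is on the mean of the 4 libraries, so a gene can pass it through the libraries where it is high. Counts of higher genes are to be read with that limit. In the combination against untreated, 21 of the 80 were called higher and 7 lower, where 12.9% and 10.5% of all genes were, with a median log2 ratio of 0.41 beside 0.05 for all genes. With indisulam alone 18 were higher and 4 lower (8.23% and 6.65% of all genes), with a median of 0.38. Palbociclib alone had 8 higher and 2 lower (5.71% and 4.84% of all genes), with a median of 0.12. Against palbociclib, the combination had 18 of these genes higher and 6 lower (9.46% and 7.32% of all genes), and against indisulam 5 higher and 6 lower (5.01% and 3.06%). The counts of lower genes were near or below the share of all genes in these comparisons except that with indisulam as the base. In the single lists below, which hold between 9 and 20 measured genes, the counts for the combination against untreated stand beside the same 12.9% higher and 10.5% lower, and the count of lower genes was near or below that share in each.

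Of 28 other ligands only 9 were measured above the filter. In the combination 4 were higher than untreated (GDF6, GDF15, BMP2 and INHBE) and INHA was lower. The log2 intervals of BMP2 (1.72 to 3.53) and INHBE (1.58 to 3.59) were wide, which comes from few reads. GDF15, a distant member of the family released by stressed cells, was at 8.04 CPM untreated, 5.04 with palbociclib, 38.0 with indisulam and 35.4 with the combination. It was higher in both libraries with indisulam, by 2.23 on the log2 scale with indisulam alone. GDF6, a BMP-type ligand, was at 1.59, 4.49, 8.38 and 19.8 CPM in the same order, a log2 ratio of 3.58 (2.92 to 4.23) for the combination. INHA encodes the inhibin alpha chain, which pairs with the beta chains to form inhibins in place of activins. It was lower by −1.61 (−2.37 to −0.84) on the log2 scale with palbociclib and by −1.85 (−2.64 to −1.07) in the combination. With indisulam alone INHA was not called, at 0.22 (−0.26 to 0.70), nor in the combination against palbociclib, at −0.25 (−1.20 to 0.71).

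Of 15 other receptors and co-receptors 11 were above the filter, and in the combination 3 were higher (BAMBI, RGMB and ACVRL1) and 1, TGFBR3, was lower. BAMBI, a receptor without a kinase domain that dampens TGF-beta and BMP signalling, was at 1.11 CPM untreated, 2.05 with palbociclib, 4.19 with indisulam and 13.2 with the combination, a log2 ratio of 3.49 (2.70 to 4.27). RGMB, a BMP co-receptor, was at 19.9, 26.5, 39.5 and 51.3 CPM in that order. TGFBR3, or betaglycan, which presents TGFB2 in particular to TGFBR2, was at 95.4 CPM untreated, 88.0 with palbociclib, 65.8 with indisulam and 44.2 with the combination, a log2 ratio of −1.11 (−1.25 to −0.97). TGFBR3 thus moved in the opposite direction to TGFB2 and TGFBR1.

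Of 26 extracellular regulators other than FST 20 were above the filter. In the combination 7 were higher (DCN, NOG, FSTL1, ITGAV, LRRC32, NRROS and BMPER) and 2 lower (BGN and LTBP4). The log2 intervals of LRRC32 (0.24 to 2.85), NRROS (0.87 to 3.20) and BMPER (2.86 to 5.23) were wide, which comes from few reads. DCN, or decorin, a matrix proteoglycan that can bind TGF-beta, was at 233 CPM untreated, 551 with palbociclib, 1681 with indisulam and 1841 with the combination, so it was 7.90-fold higher in the combination. BGN, the related proteoglycan biglycan, was at 10.8 CPM untreated, 27.3 with palbociclib, 1.14 with indisulam and 3.34 with the combination. DCN and BGN were both higher with palbociclib, by log2 ratios of 1.24 and 1.34, and with indisulam DCN was at 2.85 and BGN at −3.16. NOG, or noggin, which blocks BMPs, was at 3.90, 12.5, 8.74 and 16.5 CPM, and FSTL1, a follistatin-like glycoprotein, at 412, 780, 712 and 1246 CPM, in the order untreated, palbociclib, indisulam and combination. ITGAV, the integrin alpha V chain used to release latent TGF-beta, was higher with indisulam by 1.35 (1.27 to 1.43), and LTBP4, which tethers latent TGF-beta in the matrix, was lower in the combination by −1.55 (−1.70 to −1.40).

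All 20 other SMADs and cofactors were above the filter. In the combination 3 were higher (PMEPA1, NEDD4L and SKIL) and TGIF2, a transcriptional repressor of the pathway, was lower, which is near the shares of all genes, and the median of the list was 0.21. As background, PMEPA1 is a membrane protein that sequesters SMAD2 and SMAD3, NEDD4L a ubiquitin ligase for SMADs and SKIL a SMAD corepressor. PMEPA1 was at 8.76 CPM untreated, 15.4 with palbociclib, 19.1 with indisulam and 36.6 with the combination. NEDD4L was at 24.0, 23.9, 60.3 and 89.3 CPM and SKIL at 22.6, 29.5, 50.9 and 49.6 CPM in the same order. TGIF2 was at 30.8 CPM untreated and 15.2 with the combination, a log2 ratio of −1.01 (−1.25 to −0.77).

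Of 18 target genes of TGF-beta and activin above the filter, 4 were higher in the combination than untreated, among them TAGLN, PMEPA1 and SKIL. There were 2 lower, SNAI1 and JUNB. Of all genes 12.9% were higher and 10.5% lower, and the count of lower targets was near that share. The median of the list was 0.42, beside 0.05 for all genes. TAGLN, an actin-binding protein of contractile cells, was at 47.3 CPM untreated, 167 with palbociclib, 71.3 with indisulam and 391 with the combination, a log2 ratio of 3.05 (2.92 to 3.17). SNAI1, a repressor of E-cadherin that TGF-beta induces in epithelial cells, was at 20.6, 12.3, 6.82 and 3.62 CPM in the order untreated, palbociclib, indisulam and combination. JUNB was at 216, 205, 183 and 95.5 CPM in that order, and was called lower in the combination, at −1.18 (−1.27 to −1.08), with neither single drug called.

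Target genes of BMP other than ID1 and SMAD7 numbered 11, with 10 above the filter. In the combination 3 were higher (BAMBI, ID2 and MSX2) and none lower. The log2 interval of MSX2 was wide (0.71 to 3.24), which comes from few reads. With palbociclib alone none was called, where 10.6% of all genes were. ID2, a relative of ID1, was at 5.81 CPM untreated, 5.44 with palbociclib, 8.86 with indisulam and 14.9 with the combination. Its ratio of 1.35 (0.96 to 1.73) for the combination to untreated was opposite in sign to the −0.95 (−1.13 to −0.76) of ID1. ID3 at −0.23 (−0.41 to −0.05) and SMAD9 at −0.86 (−1.34 to −0.39) had the sign of ID1 there, and neither was called. The median of the list in the combination was 0.44.

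**Figure D5:**
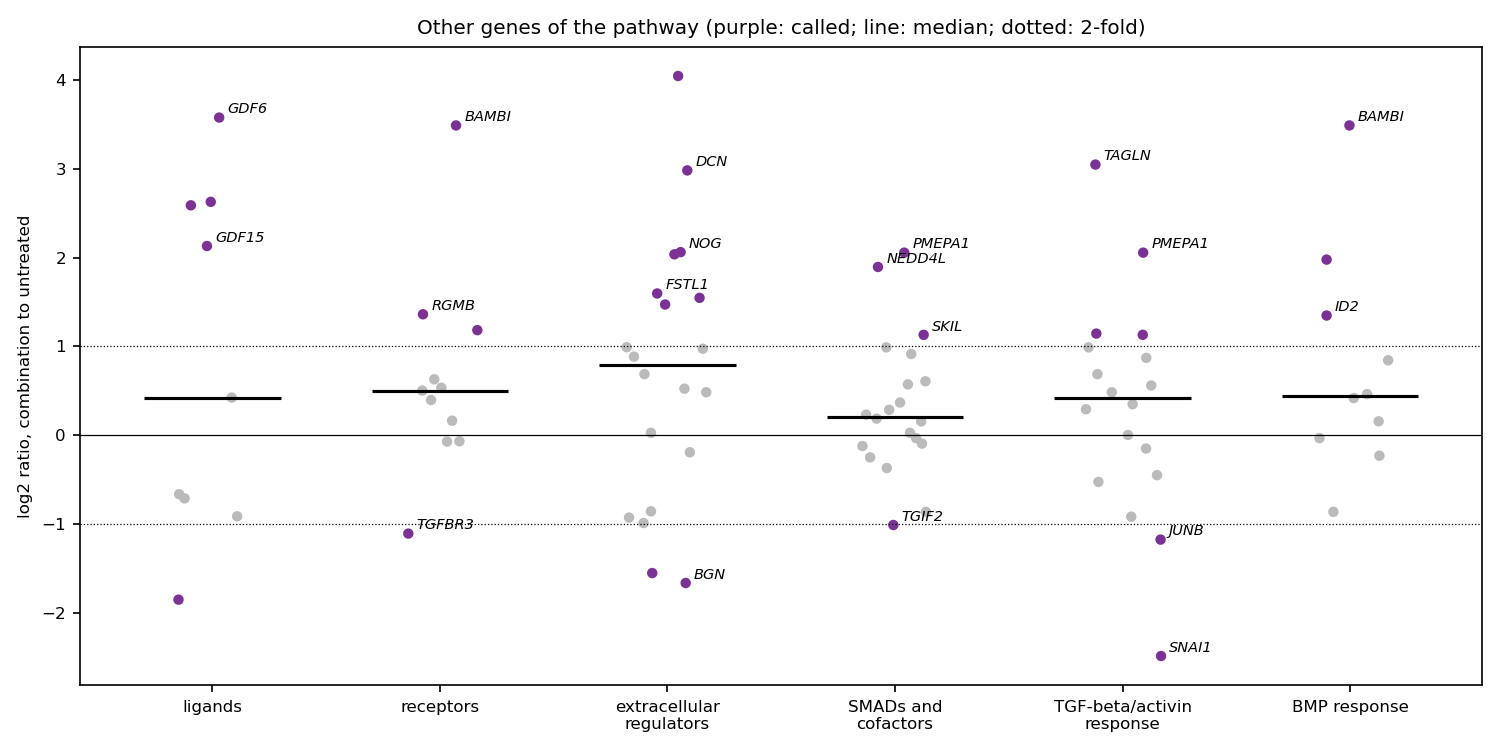
Log2 ratio of the combination to the untreated library for the other genes of the pathway above 1 CPM, by role, with 1 point per gene. Purple points are called, black lines mark the median of each list, and dotted lines 2-fold. Most called genes lie above 0 in every list, and TGFBR3, BGN, TGIF2, JUNB and SNAI1 are among those below −1.

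For members called in at least 1 comparison, the gene with the most similar pattern over the 3 ratios to untreated was sought among 11376 genes at 5 CPM or more, by Euclidean distance on the log2 scale. These were NFKBIZ for TGFB2 (distance 0.0437), ZBED3 for TGFB3 (0.0642), ACTBL2 for INHBA (0.697), CXCL12 for BMP4 (0.375), TRIM58 for TGFBR1 (0.313), FIBIN for TGFBR2 (0.0825), PVR for FST (0.0622) and PER1 for ID1 (0.0301). The distances rest on 4 libraries. INHBA had the least similar neighbour, and ACTBL2 was at 1.27 CPM untreated, 4.49 with palbociclib, 39.4 with indisulam and 110 with the combination.

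Genes that share exons with a member could affect its count if strand was not used in counting, which is not given in the sources used here. HNRNPUL1 overlaps 6.59% of the exon bases of TGFB1 on the opposite strand and had 3871, 2935, 5099 and 2989 reads in the order untreated, palbociclib, indisulam and combination. TGFB2-AS1 overlaps 11.6% of those of TGFB2 and had 6 reads or fewer, and TGFB3-AS1 and INHBA-AS1 had 3 or fewer in every library. TGFB2-OT1 lies within 22.7% of the exon bases of TGFB2 on the same strand and ENSG00000287156 within 16.3% of those of BMP4 on the opposite strand, and no row of the count tables carries either identifier.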

How the data were processed

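RNA from SUM159 cells in 4 conditions, with 1 library each, was made into strand-specific poly(A) libraries, and the authors deposited raw read counts per Ensembl gene, not normalized. The submitters' processing notes name GRCh38, TopHat2 2.1 and HTSeq, and the annotation release and strand setting are not given in the sources used here. Reads that aligned to several places (6.46% to 6.84% of the tallied reads) or to several genes (2.41% to 2.63%) were counted for no gene and were left out of library totals. Groups were taken from the sample labels.

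Counts were divided by the total of gene reads, as the study did, and multiplied by the mean total. A pseudocount of 1 scaled read (0.0710 CPM) was added before log2 ratios were taken, and intervals were Poisson intervals by the delta method. Genes with a mean of at least 1 CPM were kept, 14111 of them with a symbol, and TPM used exon lengths from GENCODE 44. With 1 library a condition no test was made. Alternatives were TMM and upper-quartile factors (edgeR 4.0.16), median-of-ratios factors (DESeq2 1.42.0), totals without mitochondrially encoded genes, pseudocounts of 0.5 and 5, no filter, a filter at 5 CPM, exact binomial intervals and a 1.5-fold threshold. From each pathway list, up to 4 genes at 5 CPM or more with the largest called ratio of combination to untreated were described with their levels, and other called genes were named after their values were seen. Members and lists were chosen with earlier results of these data known. Some genes of the lists are not reported here. The calculation was tested on simulated data (Python 3.11.15, pandas 2.3.3, scipy 1.17.1).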

Additional observations from a re-analysis of the deposited data

Results flagged for a closer look

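TGFB2 and SMAD7 stood out because the ratio for palbociclib had opposite signs without and with indisulam. For TGFB2 the log2 ratio was 0.36 (0.25 to 0.48) in cells without indisulam and −0.26 (−0.32 to −0.19) in cells that also had indisulam. For SMAD7 these values were 0.53 (0.23 to 0.84) and −0.27 (−0.51 to −0.03). All 4 counting intervals exclude no change, and none of the 4 ratios reached 2-fold. With indisulam present the ratios were below the noise bound, at 0.92 times it for TGFB2 and 0.73 times for SMAD7. Without indisulam they were 1.30 and 1.45 times the bound, so the opposite signs are not established. With 1 library a condition, the difference between the 2 estimates was not tested. It was −0.62 for TGFB2 and −0.80 for SMAD7 on the log2 scale, where the robust spread of this difference over all genes of similar level was 0.40 and 0.52.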

How the results depend on the processing

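No paired analysis was possible because each condition has 1 library. Of 578 ratios of the members under 10 alternatives, none turned its direction past the threshold and 570 moved by less than their counting interval. The other 8 are all of TGFBR2, whose interval is narrow, under other scalings. The changes of filter, the 1.5-fold threshold and the exact binomial interval leave a ratio as it was by design. Only the other scalings and pseudocounts could move a ratio, so the count of 570 includes ratios that were fixed in advance. Of 79 counts of members, 70 were within 1.5 times. With TMM and with upper-quartile factors 1 member (TGFBR1, −1.001 and −1.002) in place of 0 departed from the sum of the drugs by 2-fold. With median-of-ratios factors 1 member in place of 2 was called for the combination against indisulam, since ID1 was at −0.9999. The filter at 5 CPM left 3 members called in place of 5 for the combination against untreated, because TGFB3 and FST have lower levels. At 1.5-fold, 4 members were called for palbociclib, 7 for indisulam and 8 for the combination against untreated, 4 for the departure, and 2 in both estimates for palbociclib. Near the threshold, TGFB2 in the combination against palbociclib was at 0.95 with TMM factors, FST in the combination against untreated at 0.91 with a pseudocount of 5, and INHBA in the combination against indisulam at 1.02 with upper-quartile factors. The exact binomial interval cannot be applied to the departure, which uses 4 libraries.

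Over all 14269 tested genes, the 1.5-fold threshold called 3490 genes for palbociclib, 4439 for indisulam and 6027 for the combination against untreated. It called 4643 for the combination against palbociclib, 3126 against indisulam and 2624 for the departure. At 2-fold these numbers were 1506, 2124, 3338, 2395, 1152 and 1061. The filter at 5 CPM kept 11376 genes, of which 833, 1212, 2104, 1396, 544 and 580 were called at 2-fold in the same order. Depth limits INHBA without indisulam (5 and 14 reads) and FST (13 to 45 reads) most.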

Other observations

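Several genes of the pathway lists fell below 1 CPM on average but had more reads in the libraries with indisulam. They were picked after their values were seen, no ratio was taken for them, and the counts are given in the order untreated, palbociclib, indisulam and combination. GREM1, a secreted BMP antagonist, had 1, 0, 17 and 17 reads. PTHLH, the parathyroid hormone-like hormone that TGF-beta induces in breast cancer cells, had 0, 1, 13 and 14 reads, and IL11, a cytokine of the interleukin-6 family, had 4, 4, 14 and 14 reads. BMP7, a BMP ligand, had 1, 0, 4 and 22 reads, most of them in the combination. GDF5, another BMP-type ligand, went the other way, with 17, 24, 2 and 5 reads. Among the remaining ligands, GDF1, GDF2, GDF3, GDF10, BMP10 and BMP15 had no read in any library, which allows up to 0.239 CPM in the untreated library. CDKN2B, the CDK4 and CDK6 inhibitor that TGF-beta induces in epithelial cells, had 3 reads or fewer in every library.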
